A study of Mus musculus with 8 samples.

Results

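Fibroblast growth factors (FGFs) act through a family of receptor tyrosine kinases, FGFR1 to FGFR4. The ligand binds its receptor together with heparan sulfate, a sulfated sugar chain carried by proteoglycans of the cell surface such as the syndecans and glypicans. In the epidermis, FGFR2 is the main receptor of keratinocytes for ligands made by the dermis, FGFR3 is also expressed there, and SDC1 is the major syndecan. The genes described here are 10 components of this entry step: the receptors FGFR1, FGFR2, FGFR3 and FGFR4, the kinase-less relative FGFRL1, the proteoglycans SDC1, SDC4 and GPC1, the secreted carrier FGFBP1 and the receptor docking protein FRS2. They were taken by gene symbol from the 58304 genes kept, and all 10 had an entry.

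The labels describe 2 groups of 4 libraries. In 4 libraries the wounds had received rFGF4 (recombinant FGF4), and in the other 4 they had received PBS, a saline vehicle. The labels of both groups give total RNA of skin within 2 mm of wounds at day 6, from C57BL/6 mice of 6 to 8 weeks, and do not say whether each replicate was a separate animal. P-values therefore measure only the spread between these libraries, which may be technical.

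The expression table did not match that description. All 58825 of its gene identifiers are human and 0 are mouse, so the groups are called the libraries labelled rFGF4 and the libraries labelled PBS, and nothing is said of mouse wounds. The cells behind it are not named in any source used here. The libraries held 62044121 to 73680756 estimated counts. All 8 basal keratinocyte markers listed (KRT5, KRT14 and others) averaged at least 1 FPKM, the authors' fragment level scaled for gene length and library depth. Their summed level was 2072 to 2187 FPKM in the rFGF4 libraries and 2265 to 2583 FPKM in the PBS libraries. The 7 fibroblast markers, among them COL1A1 and PDGFRA, summed to 0.411 to 0.517 FPKM in the rFGF4 libraries and 0.776 to 0.865 FPKM in the PBS libraries, and none averaged 1 FPKM. T cell, neutrophil, skeletal muscle, adipocyte, erythrocyte and melanocyte markers were also below 1 FPKM on average, as were the macrophage markers other than CD68 and the endothelial markers other than CDH5. The 6 endothelial markers summed to 3.18 to 4.21 FPKM in the rFGF4 libraries and 1.97 to 3.22 FPKM in the PBS libraries, with PECAM1 and CDH5 higher in every rFGF4 library than in any PBS library. The 6 macrophage and monocyte markers summed to 8.11 to 11.03 FPKM in the rFGF4 libraries and 7.72 to 8.77 FPKM in the PBS libraries, nearly all of it CD68. The part of any of these markers in the results was not tested. In such bulk values, fewer cells of a type and less RNA per cell cannot be told apart.

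FGFR3 and SDC4 were lower in the libraries labelled rFGF4. FGFR3 fell by 1.03 on the log2 scale, to 0.489 of the PBS level, and SDC4 fell by 0.44, to 0.738 of the PBS level. These were 2 of the 7 genes of the set that averaged at least 1 FPKM over the 8 libraries and were tested. Over all 11536 tested genes, 4.54% were called lower and 5.49% higher at an adjusted p under 0.05. None of the 7 was called higher by edgeR, and 0 were higher at an unadjusted p under 0.05; DESeq2 called 0 higher, with 1 at an unadjusted p under 0.05. The other 5 tested genes, FGFR2, SDC1, GPC1, FGFBP1 and FRS2, did not pass. The median log2 fold change of the 7 was −0.15, beside 0.0015 for all tested genes. The 3 genes that were not tested were FGFR1 and FGFR4, which were nearly silent, and FGFRL1, which averaged 0.997 FPKM and lay just below the limit.

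**Figure D1:**
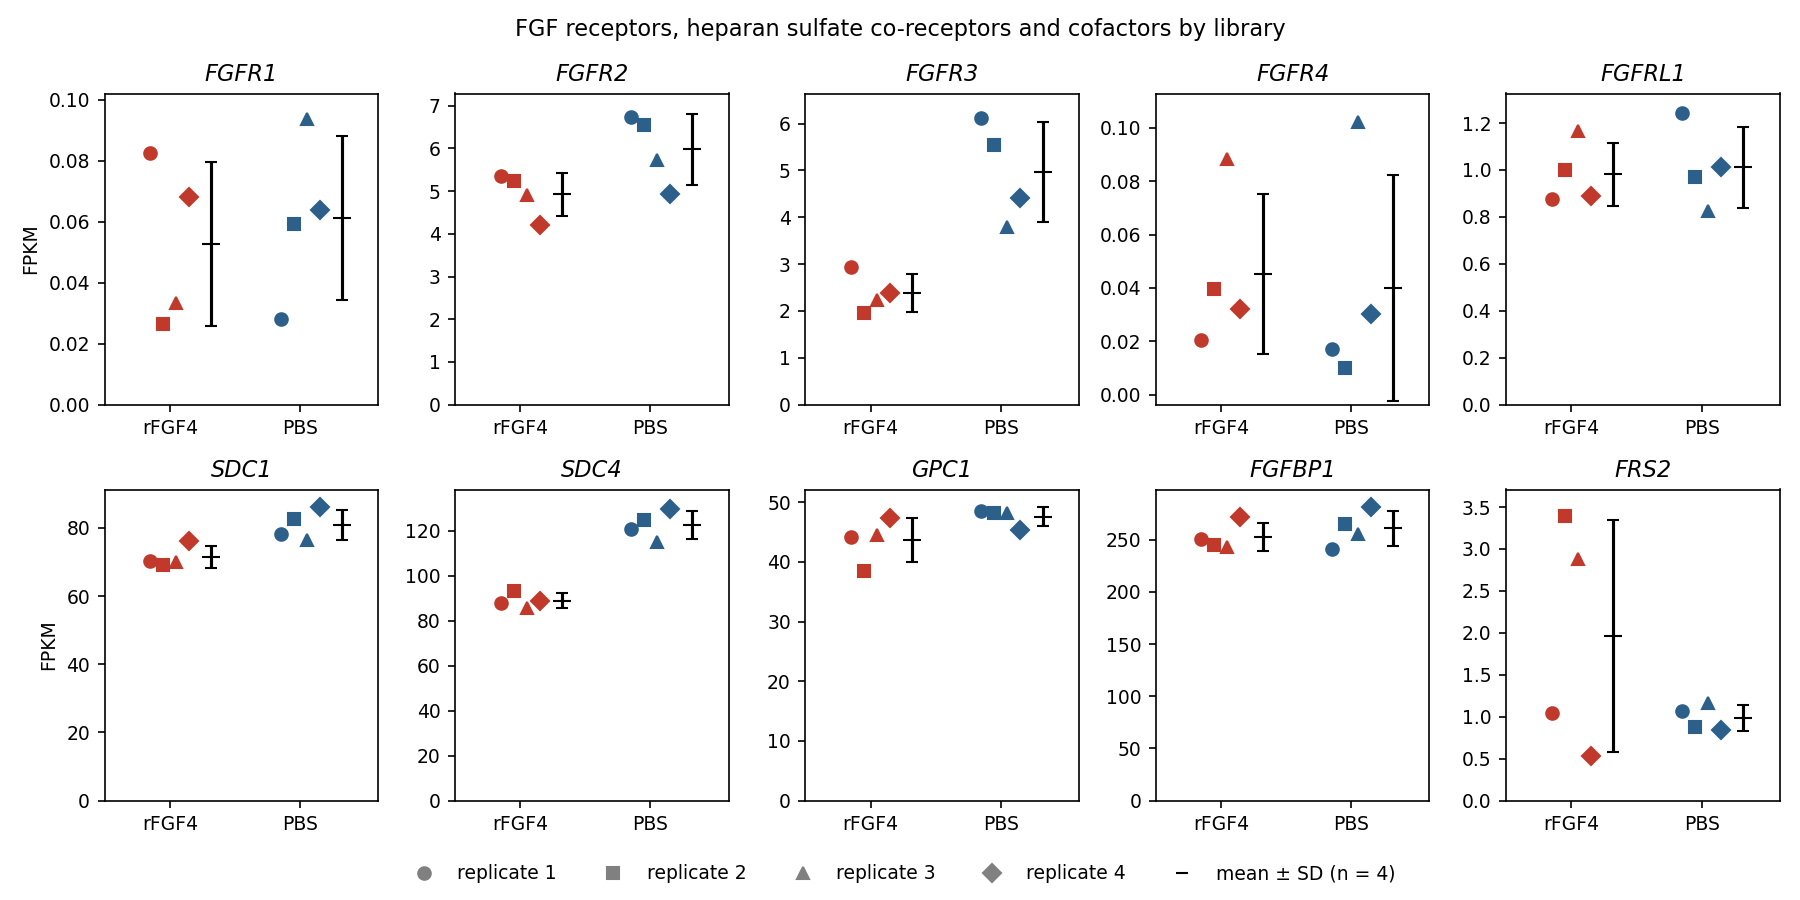
FPKM of the 10 genes in each library (vertical axes, FPKM, one scale per panel), with rFGF4 libraries in red and PBS libraries in blue, a symbol per replicate number and a bar for the mean ± SD of 4 libraries. FGFR3, SDC4 and SDC1 are lower in every rFGF4 library than in any PBS library, while FRS2 is high in rFGF4 replicates 2 and 3 alone.

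Among the receptors, FGFR2 and FGFR3 supplied nearly all of the transcripts. FGFR3 (ENSG00000068078; chromosome 4, 1793293 to 1808872, plus strand, as the table gives it, with no genome build stated) stood at 2.93, 1.96, 2.24 and 2.39 FPKM in rFGF4 replicates 1 to 4, against 6.12, 5.54, 3.78 and 4.41 FPKM in PBS replicates 1 to 4. The groups did not overlap, and the PBS libraries were the more spread, replicates 1 and 2 lying above 3 and 4. The mean was 2.38 ± 0.405 FPKM in the rFGF4 libraries and 4.96 ± 1.06 FPKM in the PBS libraries (SD, n = 4 each). The log2 fold change of counts was −1.03 (SE 0.18, 95% interval −1.45 to −0.62, edgeR adjusted p = 0.00979). The estimate rested on 817 to 2605 counts per library, and 0 other genes of the table overlapped FGFR3.

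FGFR2 (ENSG00000066468; chromosome 10, 121478334 to 121598458, minus strand) stood at 5.35, 5.23, 4.91 and 4.21 FPKM in rFGF4 replicates 1 to 4, against 6.73, 6.55, 5.73 and 4.93 FPKM in PBS replicates 1 to 4. The ranges overlapped, PBS replicate 4 lying below rFGF4 replicates 1 and 2. Each rFGF4 library lay below the PBS library of the same number. The log2 fold change was −0.26 (SE 0.11, 95% interval −0.50 to −0.02), with an unadjusted p of 0.0397 and an edgeR adjusted p of 0.174 over all tested genes. FGFR2 thus did not pass, and its interval runs from almost no difference to a loss of 0.50. With replicate number added to the fit as a block, the log2 fold change was −0.25 (SE 0.059, edgeR adjusted p = 0.064). That did not pass either. The table gives 1 value per gene, so the epithelial and mesenchymal splice forms of FGFR2 and FGFR3, which differ in the ligands they bind, are summed.

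FGFR1 and FGFR4 were close to 0 in every library. FGFR1 (ENSG00000077782), the main receptor of mesenchymal cells, stood at 0.083, 0.027, 0.033 and 0.068 FPKM in rFGF4 replicates 1 to 4, against 0.028, 0.059, 0.094 and 0.064 FPKM in PBS replicates 1 to 4. FGFR4 (ENSG00000160867) stood at 0.021, 0.040, 0.088 and 0.032 FPKM in rFGF4 replicates 1 to 4, against 0.017, 0.010, 0.102 and 0.030 FPKM in PBS replicates 1 to 4. The groups overlapped for both genes. Behind these values lay 32 to 102 counts for FGFR1 and 4 to 37 for FGFR4. A fragment is taken to be worth about 4 counts, so 4 of the 8 libraries were at or below 3 fragments (12 counts) for FGFR4. With no filter on low values, FGFR1 had a log2 fold change of −0.18 (95% interval −1.23 to 0.86, adjusted p = 0.892) and FGFR4 had 0.25 (−1.39 to 1.90, adjusted p = 0.909). These intervals allow changes in either direction, and a difference was not detectable at this depth. LETM2 and 3 further genes of the table overlap the span of FGFR1, so its few counts may be shared with them.

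The share of FGFR3 among the receptors was lower in the rFGF4 libraries. FGFR3 made up 34.96%, 27.1%, 30.8% and 35.7% of the summed FPKM of FGFR1 to FGFR4 in rFGF4 replicates 1 to 4, against 47.5%, 45.6%, 39.0% and 46.8% in PBS replicates 1 to 4. The summed FPKM of the 4 receptors was 7.41 ± 0.703 in the rFGF4 libraries and 11.1 ± 1.73 in the PBS libraries (SD, n = 4 each). The ratio of FGFR3 to FGFR2 FPKM within a library, which does not depend on library scaling, was 0.548, 0.376, 0.457 and 0.569 in rFGF4 replicates 1 to 4, against 0.909, 0.847, 0.660 and 0.896 in PBS replicates 1 to 4. FGFR2 was thus the higher of the pair in all 8 libraries, and the 2 groups of ratios did not overlap. The mean log2 ratio was −1.06 ± 0.275 in the rFGF4 libraries and −0.28 ± 0.215 in the PBS libraries, a difference of −0.77. A two-sided exact permutation test over the 8 libraries gave p = 0.0286, the smallest p that 70 splits can give.

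**Figure D2:**
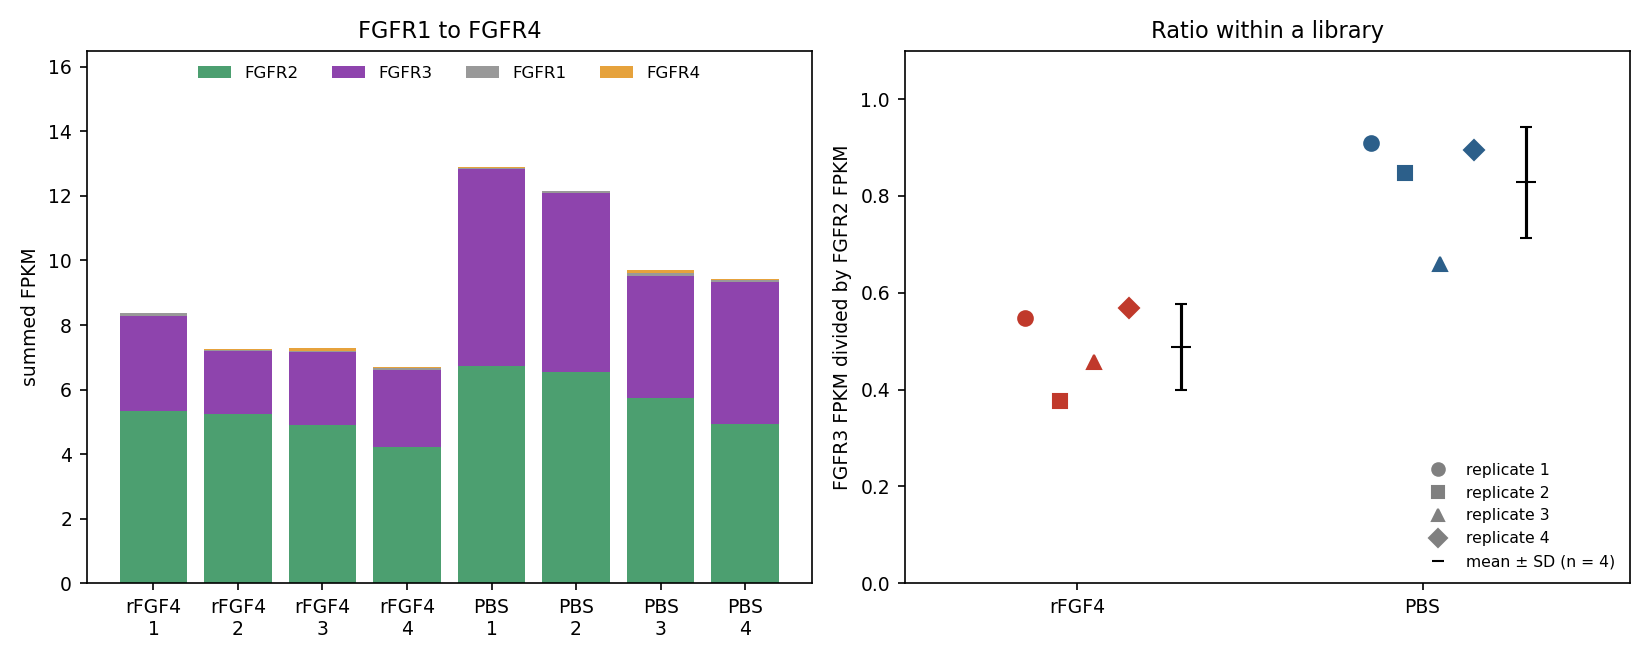
Left, the FPKM of FGFR1 to FGFR4 stacked for each library (vertical axis, summed FPKM); right, the ratio of FGFR3 to FGFR2 FPKM in each library, with the mean ± SD of 4 libraries. The ratio is 0.376 to 0.569 in the rFGF4 libraries and 0.660 to 0.909 in the PBS libraries, and FGFR1 and FGFR4 are barely visible.

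FGFRL1 (ENSG00000127418; chromosome 4, 1009936 to 1026891, plus strand), which binds FGFs and heparin but has no kinase domain, was expressed at a low level. It stood at 0.874, 0.999, 1.16 and 0.888 FPKM in rFGF4 replicates 1 to 4, against 1.24, 0.970, 0.825 and 1.01 FPKM in PBS replicates 1 to 4. The groups overlapped across nearly their whole range. In a fit with the limit lowered to a mean of 0.1 FPKM, its log2 fold change was −0.01 (SE 0.16, 95% interval −0.38 to 0.35, edgeR adjusted p = 0.981 over 17964 genes).

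Of SDC1, SDC4 and GPC1, SDC4 alone passed the test. SDC4 (ENSG00000124145; chromosome 20, 45325288 to 45348424, minus strand), a syndecan found at focal adhesions, stood at 88.0, 93.1, 85.4 and 88.9 FPKM in rFGF4 replicates 1 to 4, against 121, 125, 115 and 129 FPKM in PBS replicates 1 to 4. Every rFGF4 library lay below every PBS library, and the gap was wider than the range within either group. The mean was 88.8 ± 3.21 FPKM in the rFGF4 libraries and 122 ± 6.22 FPKM in the PBS libraries (SD, n = 4 each), with a log2 fold change of −0.44 (SE 0.06, 95% interval −0.58 to −0.30, edgeR adjusted p = 0.00346). A single unnamed gene model overlapped SDC4 on the same strand, with at most 0.377 FPKM.

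SDC1 and GPC1 did not pass. SDC1 (ENSG00000115884; chromosome 2, 20200797 to 20225433, minus strand), the main syndecan of stratified epithelium, stood at 70.4, 69.2, 70.1 and 76.3 FPKM in rFGF4 replicates 1 to 4, against 78.2, 82.7, 76.6 and 86.1 FPKM in PBS replicates 1 to 4. The groups did not overlap, by a margin of under 1 FPKM between rFGF4 replicate 4 and PBS replicate 3. FGFR3, SDC4 and SDC1 were the 3 of the 7 tested genes without overlap, all lower. Of all tested genes, 19.2% had groups that did not overlap, 10.4% with every rFGF4 library lower and 8.76% with every rFGF4 library higher. The log2 fold change of SDC1 was −0.15 (SE 0.07, 95% interval −0.32 to 0.01) and did not pass (edgeR adjusted p = 0.24). GPC1 (ENSG00000063660; chromosome 2, 240435663 to 240468076, plus strand), a glypican held in the membrane by a lipid anchor, stood at 44.2, 38.5, 44.6 and 47.3 FPKM in rFGF4 replicates 1 to 4, against 48.6, 48.2, 48.2 and 45.3 FPKM in PBS replicates 1 to 4. The groups overlapped through rFGF4 replicate 4 and PBS replicate 4, and the log2 fold change was −0.10 (SE 0.08, 95% interval −0.28 to 0.09, adjusted p = 0.529). MIR149 and an opposite-strand gene lie within the span of GPC1, with at most 0.107 FPKM.

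Of the 3 proteoglycans together, the summed FPKM was 204 ± 5.76 in the rFGF4 libraries and 251 ± 9.33 in the PBS libraries (SD, n = 4 each). SDC4 made up 41.8% to 46.4% of that sum in the rFGF4 libraries and 47.9% to 49.6% in the PBS libraries. The order of levels was SDC4, SDC1 and GPC1 in both groups, and neighbours in that order did not overlap in either.

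FGFBP1 (ENSG00000137440; chromosome 4, 15935569 to 15938740, minus strand), a secreted protein that releases FGFs from the heparan sulfate of the matrix, was the most abundant gene of the set per kilobase. It stood at 250.5, 245, 243 and 272 FPKM in rFGF4 replicates 1 to 4, against 241, 265, 255 and 282 FPKM in PBS replicates 1 to 4. The groups overlapped, and its log2 fold change of −0.02 had the interval −0.20 to 0.16 (SE 0.08, edgeR adjusted p = 0.908). This was the smallest fold change among the 7 tested genes.

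FRS2 (ENSG00000166225; chromosome 12, 69470349 to 69579789, plus strand), the docking protein that links active FGF receptors to GRB2 and the RAS pathway, varied more within the rFGF4 libraries than between the groups. It stood at 1.04, 3.39, 2.89 and 0.534 FPKM in rFGF4 replicates 1 to 4, against 1.07, 0.880, 1.16 and 0.840 FPKM in PBS replicates 1 to 4. Replicates 2 and 3 of the rFGF4 group lay above all PBS libraries, replicate 1 lay among them and replicate 4 lay below them. The coefficient of variation was 70.7% in the rFGF4 libraries and 15.5% in the PBS libraries. The log2 fold change was 1.001 with an interval of −0.15 to 2.15 (SE 0.50, edgeR adjusted p = 0.261). Without rFGF4 replicate 2 it was 0.63 (edgeR adjusted p = 0.471). Without rFGF4 replicate 4 it was 1.304 (SE 0.358, edgeR adjusted p = 0.0633), and neither passed the threshold.

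The genes closest to FRS2 in profile were chosen for their likeness to it, so their values are a description, and they are named here after those values were seen. By root mean square difference of centred log2 CPM over 8 libraries, the closest were CENPO (0.257), which encodes a kinetochore protein, the pseudogene CTBP2P4 (0.385) and TACC1 (0.39). CENPO stood at 3.57, 10.9, 10.6 and 2.66 FPKM in rFGF4 replicates 1 to 4, against 2.95, 2.95, 3.15 and 3.15 FPKM in PBS replicates 1 to 4. CENPO was highest in rFGF4 replicates 2 and 3. Unlike FRS2, it was also above all PBS libraries in rFGF4 replicate 1.

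**Figure D3:**
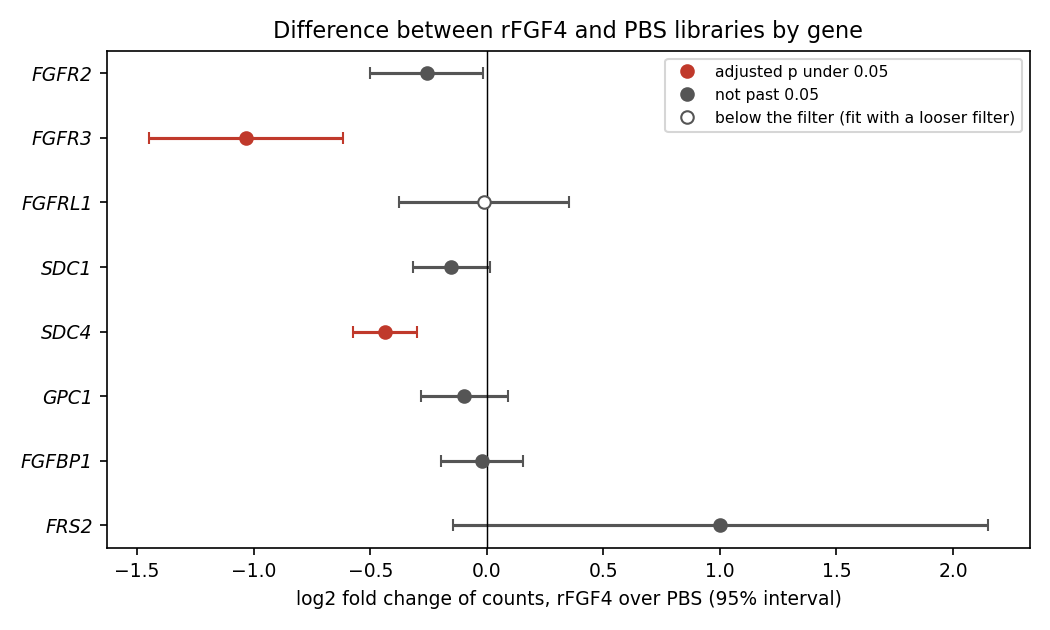
Log2 fold change of counts, rFGF4 over PBS, with its 95% interval (horizontal axis) for the 7 tested genes and, as an open circle, FGFRL1 from the fit with the limit at a mean of 0.1 FPKM. The intervals of FGFR3 (−1.45 to −0.62) and SDC4 (−0.58 to −0.30) lie below 0 and pass after adjustment, and that of FRS2 is the widest of those drawn.

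Ordered by mean FPKM in the rFGF4 libraries, the set ran FGFBP1, SDC4, SDC1, GPC1, FGFR2, FGFR3, FRS2, FGFRL1, FGFR1 and FGFR4. In the PBS libraries FGFRL1 and FRS2 changed places, and the rest of the order was the same. FGFR2 and FGFR3 did not overlap in the rFGF4 libraries (4.21 to 5.35 and 1.96 to 2.93 FPKM) but did in the PBS libraries (4.93 to 6.73 and 3.78 to 6.12 FPKM). FGFR3 overlapped FRS2 in the rFGF4 libraries only. FRS2 overlapped FGFRL1, and FGFR1 overlapped FGFR4, in both groups.

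The tested genes closest in profile to FGFR3 and SDC4 were chosen over the same 8 libraries, so their direction follows from the choice and their values are a description. For FGFR3 they were SYNPO (root mean square difference 0.162), an actin-associated protein, SEMA3F (0.199), a secreted semaphorin, and CEL (0.2), a lipase. SYNPO averaged 0.953 ± 0.040 FPKM in the rFGF4 libraries and 1.97 ± 0.261 FPKM in the PBS libraries (SD, n = 4 each). The log2 fold changes were −1.02 for SYNPO, −0.81 for SEMA3F and −0.82 for CEL. For SDC4 they included the non-coding RNA gene HCP5 (0.0363) and the retinol dehydrogenase gene RDH10 (0.0514). HCP5 averaged 8.18 ± 0.226 FPKM in the rFGF4 libraries and 11.2 ± 0.301 FPKM in the PBS libraries. RDH10 averaged 5.51 ± 0.321 FPKM in the rFGF4 libraries and 7.45 ± 0.251 FPKM in the PBS libraries.

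Some keratinocyte markers were also lower beside FGFR3 and SDC4. Among the 8 basal markers, 2 were called lower, KRT15 (log2 fold change −0.56, adjusted p = 0.0184) and DSG3 (−0.58, adjusted p = 0.0181). The other 6 did not pass, and 4 of them had positive log2 fold changes: ITGB4 (0.20, adjusted p = 0.0998), COL17A1 (0.10), ITGA6 (0.09) and TP63 (0.03). The group ranges of the summed FPKM given above did not overlap, and KRT5 (−0.22) and KRT14 (−0.17), which did not pass, made up most of that sum. The 8 differentiation markers summed to 25 to 28.27 FPKM in the rFGF4 libraries and 28.33 to 30.94 FPKM in the PBS libraries. Of these, 5 were tested and TGM1 alone was called, just under the threshold (−0.50, adjusted p = 0.0499), while FLG (0.22) and SPRR1B (0.20) had positive log2 fold changes. IVL (−0.26, edgeR adjusted p = 0.114) and KRT10 (−0.004) did not pass. IVL averaged 9.61 ± 0.765 FPKM in the rFGF4 libraries and 11.7 ± 0.491 FPKM in the PBS libraries. Beside these counts, 4.54% of all tested genes were called lower. The part of these markers in the FGFR3 and SDC4 results was not tested.

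The wider pathway was described through 8 lists with 128 genes, of which 70 were tested. In all, 6 were called higher (8.57% of those tested) and 5 lower (7.14%), beside 5.49% and 4.54% of all tested genes. The calls lay in 4 of the lists.

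The FGF ligands were almost absent. FGF4 itself had 0 counts in all 8 libraries, and 12 of the 22 ligand genes were at or below 12 counts in every library. The highest was FGF11, an intracellular relative that is not secreted, at 1.35, 0.350, 1.49 and 1.70 FPKM in rFGF4 replicates 1 to 4, against 1.78, 0.504, 1.52 and 1.22 FPKM in PBS replicates 1 to 4. Replicate 2 was the lowest of each group. FGF11 was the only ligand gene tested, with a log2 fold change of 0.0004 (SE 0.51). Beside FGF11 and FGF14, which is also intracellular, no ligand gene exceeded 0.217 FPKM in any library.

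The other receptors, cofactors and proteoglycans gave no call at the 1 FPKM limit. Of 14 further receptors and cofactors, 3 were tested and 0 passed, with log2 fold changes of −0.16 to 0.06. KL, the klotho co-receptor for endocrine FGFs, had 0 counts. Of 13 other carriers and partners of heparan sulfate, 6 were tested and 0 passed. The closest to the threshold was CD44, a hyaluronan receptor that can carry heparan sulfate, at a log2 fold change of 0.37 (SE 0.10, adjusted p = 0.0516). One gene of this list was called higher by DESeq2 and by edgeR without rFGF4 replicate 4 or PBS replicate 4, and 1 was called lower with the limit at a mean of 0.1 FPKM or with edgeR's own filter on low counts. SDC2 and GPC3 had at most 4 and 0 counts in any library. All 11 tested genes of chain initiation and polymerisation, EXT1 and EXT2 among them, did not pass, with a median log2 fold change of −0.02. DESeq2 called 2 of them higher and 1 lower, and edgeR called 1 higher without rFGF4 replicate 4.

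Genes that modify the heparan sulfate chain moved in both directions. Of 22 such genes 12 were tested, 3 rose, 2 fell and 7 did not pass, with a median log2 fold change of 0.04. The shares were 25% higher and 16.7% lower, beside 5.49% and 4.54% of all tested genes. Under 7 of 17 alternative settings the lower count was 1, and the higher count ran from 1 to 3. HS3ST1, a sulfotransferase that adds 3-O-sulfate and forms the antithrombin binding site of heparin, stood at 2.51, 2.21, 2.45 and 2.54 FPKM in rFGF4 replicates 1 to 4, against 1.04, 1.22, 1.18 and 1.11 FPKM in PBS replicates 1 to 4. It rose by 1.12 (SE 0.09, edgeR adjusted p = 0.0005), and the groups lay far apart. HS6ST1, which adds the 6-O-sulfate groups that FGF receptor complexes need, stood at 8.06, 6.77, 7.89 and 7.58 FPKM in rFGF4 replicates 1 to 4, against 11.4, 10.1, 10.8 and 10.7 FPKM in PBS replicates 1 to 4. The groups did not overlap, and HS6ST1 fell by 0.48 (SE 0.08, adjusted p = 0.00697). SULF2, an extracellular enzyme that removes 6-O-sulfate, rose by 0.30 (SE 0.06, adjusted p = 0.0172), with 11.6 ± 1.01 FPKM in the rFGF4 libraries and 9.55 ± 0.382 FPKM in the PBS libraries. HS3ST2, a further 3-O-sulfotransferase, rose by 0.59 (SE 0.13, adjusted p = 0.0246). The fifth call, outside the naming rule, was PAPSS1, which makes the sulfate donor and fell by 0.26 (adjusted p = 0.0325).

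The calls for HS3ST1 and HS6ST1 held without any 1 library. That for HS3ST2 ended without rFGF4 replicate 3 or PBS replicate 1, 2 or 3 (adjusted p 0.0673 to 0.0824), and that for SULF2 without rFGF4 replicate 1 or PBS replicate 2 or 3 (0.0507 to 0.0697). The call for HS3ST2 also ended with no filter on low values, and that for SULF2 under limma with either pseudocount.

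**Figure D4:**
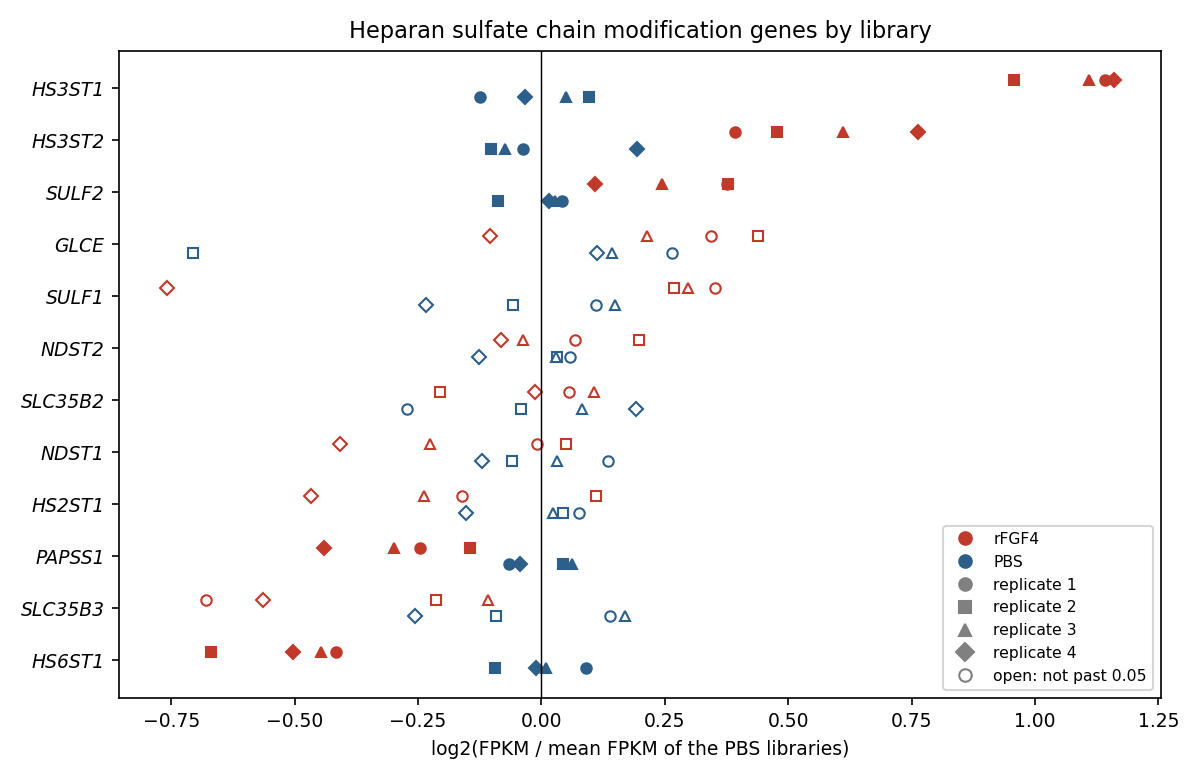
FPKM of the 12 tested chain modification genes in each library on a log2 scale relative to the mean of the PBS libraries (horizontal axis), with rFGF4 libraries in red above PBS libraries in blue for each gene and filled symbols for genes past the threshold. HS3ST1 lies highest and HS6ST1 lowest among the rFGF4 libraries by fold change (1.12 and −0.48).

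Of the chain breakdown and shedding genes, 10 of 15 were tested and 2 fell (20%), beside 4.54% of all tested genes. That count was 0 with no filter on low values and with the replicate block. It was also 0 without rFGF4 replicate 1 or any 1 PBS library. HPSE, the endoglycosidase heparanase, fell by 0.33 (SE 0.07, adjusted p = 0.0282). With 1 library left out, HPSE passed only without rFGF4 replicate 3 or 4, and its adjusted p was 0.0543 to 0.0835 otherwise; its call also ended with no filter on low values. DESeq2's Wald test and limma with either pseudocount called 3 genes of this list lower. The sheddases ADAM10, ADAM17, MMP7 and MMP14 did not pass in the main fit. MMP7 (log2 fold change −0.31, edgeR adjusted p = 0.0656) and MMP14 (−0.18, 0.121) were lower in every rFGF4 library than in any PBS library, as were 10.4% of all tested genes. For ADAM10 and ADAM17 the groups overlapped.

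Among 15 adaptors and effectors that act close to the receptors, 13 were tested. SOS2, an exchange factor for RAS, fell by 0.63 (SE 0.10, adjusted p = 0.00519), with 1.81 ± 0.217 FPKM in the rFGF4 libraries and 2.86 ± 0.246 FPKM in the PBS libraries. SRC, a kinase, rose by 0.22 (SE 0.06, adjusted p = 0.039), and its call ended without any 1 library other than rFGF4 replicate 2 (0.0564 to 0.128), under any other filter and under limma. GRB2, the adaptor that binds FRS2, is named after its values were seen. It stood at 5.81, 6.13, 21.5 and 12.3 FPKM in rFGF4 replicates 1 to 4, against 17.3, 21.8, 22.3 and 16.8 FPKM in PBS replicates 1 to 4. Replicates 1, 2 and 4 of the rFGF4 group lay below all PBS libraries and replicate 3 lay within their range, and GRB2 did not pass (−0.73, SE 0.41, adjusted p = 0.311).

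All 14 trafficking genes were tested and 2 rose (14.3%), beside 5.49% of all tested genes called higher. That count was 1 under 13 of 17 alternative settings, and DESeq2 also called 1 gene lower. CTTN, an actin-binding protein, rose by 0.28 (SE 0.05, adjusted p = 0.0094). NEDD4L, a ubiquitin ligase, rose by 0.22 (SE 0.06, adjusted p = 0.0478), and its call ended without any 1 library other than PBS replicate 3 (0.0538 to 0.141), under any other filter, under limma and with DESeq2's size factors. CBL, the ligase that tags active FGF receptors for degradation, did not pass (log2 fold change 0.03, SE 0.17).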

How the data were processed

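Per the file headers, the authors deposited FPKM and a count for each gene and library, with an FPKM of 0.0001 in place of 0. The deposited counts are whole numbers but are treated as estimated counts, since low values piled up at 4 (9781 entries, against 3485 at 3 and 1977 at 5); they were whole, so rounding changed nothing. The submitters' processing notes name HISAT2 2.0 and StringTie 1.3.0, with no role given. No source used here gives the genome build, the annotation or the use of strand. Columns were matched to samples by name.

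Left out were 521 genes: Y-linked ones, XIST and TSIX. Counts of genes with a mean of at least 1 FPKM were tested with edgeR 4.0.16 in R 4.3.3 (TMM scaling, quasi-likelihood test, two-sided, Benjamini-Hochberg over all 11536 genes, threshold 0.05). The procedure was also run on simulated counts drawn from the fitted spread between libraries. Those counts lacked the pile-up described above, so they cannot show how the test behaves on estimated counts. Fold changes are rFGF4 over PBS, SE is the fold change over the root of the F statistic, and 95% intervals use its degrees of freedom. Levels are FPKM. Total counts limit precision only at low values. Each pair of libraries differed by far more than counting noise. Per gene, the squared difference in fragments (counts divided by 4) over its counting variance averaged 22.31 to 26.12 between PBS libraries. Between rFGF4 libraries it averaged 24.37 to 64.57, highest for replicates 2 and 4. Between an rFGF4 and a PBS library it averaged 30.05 to 60.25, so the pair that differed most lay within the rFGF4 group. The ratio of FGFR3 to FGFR2 was tested by exact permutation in SciPy 1.17.1. Alternatives used DESeq2 1.42.0 and limma 3.58.1, other filters and left-out libraries.

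The genes and lists were chosen with earlier results of these data known. By the naming rule, the 10 genes, the 3 closest profiles of each called gene, up to 4 called genes of each list, FGF4 and the highest FGF ligand gene are named, except 2 genes that are not reported here. CD44, KL, SDC2, GPC3, EXT1, EXT2, CBL and the sheddases were named outside it.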

Additional observations from a re-analysis of the deposited data

Results flagged for a closer look

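GPC1 in PBS replicate 4 lay apart from the rest of its group. It stood at 45.3 FPKM there, with the other PBS libraries at 48.23 to 48.59 FPKM, so the gap to the nearest library was 0.89 of the group's range, past the 95% limit of Dixon's test for 4 libraries. The group's whole range was narrow, and 26 groups of 4 values were examined, of which chance flags about 1 in 20. Without PBS replicate 4 the log2 fold change of GPC1 was −0.11 and did not pass.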

How the results depend on the processing

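The calls for FGFR3 and SDC4 held under all 17 alternatives run, and 0 other genes of the set passed under any. The log2 fold change ran from −1.15 to −0.81 for FGFR3 (highest adjusted p 0.0357) and from −0.48 to −0.40 for SDC4 (0.0172). The log2 difference in the FGFR3 to FGFR2 ratio ran from −0.88 to −0.65 without 1 library; 4 against 3 libraries cannot give a p under 0.0571, so these are values without a test. Whether replicate numbers pair the libraries was not settled, and the main fit did not pair them. Deviations of same-numbered libraries correlated at 0.16, 0.0967, −0.0292 and 0.192. Numbers 1, 2 and 4 were best matched by their own, and number 3 was not. With the replicate block, 561 genes were higher and 452 lower, FGFR3 and SDC4 were still called, and HPSE, SRC and NEDD4L were not; a sign-flip test of the ratio over 4 pairs gave an exact p of 0.125, the smallest it can give. Over all genes 633 were called higher and 524 lower. DESeq2's Wald test called 982 and 846. Without 1 library, 326 to 622 were higher and 275 to 547 lower, with 388 and 327 without rFGF4 replicate 1, 364 and 311 without rFGF4 replicate 3, 394 and 338 without PBS replicate 1, 326 and 275 without PBS replicate 2, and 409 higher without PBS replicate 3. Without PBS replicates 2, 3 and 4 or rFGF4 replicates 1 and 3, each in turn, PAPSS1 was not called (0.0675 to 0.101). An alternative added after seeing the data, counts divided by 4, called 635 higher and 521 lower. Low counts limit FGFR1 and FGFR4, and the 1 FPKM limit decides that FGFRL1 was not tested.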

Other observations

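With the limit lowered to a mean of 0.1 FPKM, 15 further genes of the pathway lists could be tested, and edgeR called 2 lower and 0 higher. Over all 17964 genes of that fit, 552 were called lower and 615 higher. The 2 list genes are named after their values were seen. GPC2, a glypican, stood at 0.229, 0.223, 0.200 and 0.240 FPKM in rFGF4 replicates 1 to 4, against 0.448, 0.448, 0.351 and 0.363 FPKM in PBS replicates 1 to 4, a log2 fold change of −0.80 (SE 0.17, adjusted p = 0.0281). FGF1, a ligand that binds all FGF receptors, stood at 0.026, 0, 0.037 and 0.017 FPKM in rFGF4 replicates 1 to 4, against 0.208, 0.217, 0.113 and 0.216 FPKM in PBS replicates 1 to 4 (adjusted p = 0.0409). Its counts ran from 0 to 92, so the size of that difference is uncertain. With no filter on low values, neither GPC2 nor FGF1 was called.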
